A study of Mus musculus with 9 samples.

Results

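The Ces1 genes encode carboxylesterases, and 8 of them were followed here: Ces1a, Ces1b, Ces1c, Ces1d, Ces1e, Ces1f, Ces1g and Ces1h. They were chosen by symbol in the annotation table of the array. Each was to be read from its single-symbol probe set with the highest mean over the 9 arrays, and since each had exactly 1 such probe set, that mean decided nothing. No probe set was shared by a member and another symbol. The 8 members are part of 22180 genes tested. Liver RNA came from mice labelled C56BL/6J in the strain entry and C57BL/6 in the protocols, 5 weeks old on arrival in the study and sampled after an overnight fast. The groups are RD, a regular diet with vehicle, HFD, a high-fat diet with vehicle, and GFB, the same high-fat diet with an extract of ginseng flower buds in place of vehicle. Extract (500 mg/kg) or vehicle was given by mouth once a day for 12 weeks, and each group has 3 arrays. The labels carry no genetic change, do not give the sex, and do not say that each array is a separate animal, so p-values measure only the spread between these samples, which may be technical.

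Carboxylesterases are serine hydrolases that cleave ester, thioester and amide bonds, both in drugs and in lipids. Most members of the family sit in the lumen of the endoplasmic reticulum of hepatocytes, where some release fatty acids from stored triglyceride or cholesteryl ester and so feed the assembly of very-low-density lipoprotein. Mice carry a row of Ces1 genes where humans have CES1, and in the RefSeq annotation the 8 lie side by side on chromosome 8 in the order Ces1a to Ces1h. The genes arose by duplication and are alike in sequence, so a probe set named for 1 of them may also bind RNA of its neighbours, and the share of such signal was not tested.

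Promoter sequence is shown because the members are neighbouring duplicates whose values under the diet are compared here. RefSeq promoter windows on GRCm38.p6, read for the 250 bases before each start, matched 6 of the 8 members (Ces1a, Ces1b, Ces1c, Ces1e, Ces1g and Ces1h). The Ces1g window is chr8:93337210-93337459 on the minus strand, with the letters TTATGTAA, known as a D-box, in capitals:
Ces1g: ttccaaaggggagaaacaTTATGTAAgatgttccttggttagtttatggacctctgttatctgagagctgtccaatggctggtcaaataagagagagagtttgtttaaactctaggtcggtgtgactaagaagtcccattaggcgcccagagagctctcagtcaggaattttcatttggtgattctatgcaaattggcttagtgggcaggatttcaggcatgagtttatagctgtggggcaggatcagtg

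The D-box is the sequence bound by clock-output factors such as Dbp, and related factors of the C/EBP type can bind it too. It was noticed while reading these promoters and then counted on both strands. It was found in 5 of the 6 members with a window, all but Ces1h, and in 0.819% of the 32851 windows of the table. A member was counted if any of its windows held a match, while the share is per window. The D-box was picked because it was seen in these promoters, so its excess over that share is built into the choice and is no separate result. The first base of the D-box lay 232 bases before the start in Ces1g, 198 in Ces1a, 94 in Ces1c, 84 in Ces1b and 81 in Ces1e. It was always on the strand of the gene. The other 4 matches follow with 20 bases on either side, all on the minus strand, at chr8:93048363-93048410 (Ces1a), chr8:93079997-93080044 (Ces1b), chr8:93131350-93131397 (Ces1c) and chr8:93229673-93229720 (Ces1e), with the same letters in capitals:
Ces1a: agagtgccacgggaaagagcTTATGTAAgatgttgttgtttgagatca
Ces1b: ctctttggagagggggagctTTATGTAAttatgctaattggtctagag
Ces1c: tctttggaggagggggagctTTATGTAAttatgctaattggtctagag
Ces1e: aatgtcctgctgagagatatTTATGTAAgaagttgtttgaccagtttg

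Ces1b and Ces1c are nearly the same around the match, and over the window 211 of 223 aligned bases were identical (94.6%) for the Ces1b start nearest to that of Ces1c in sequence. Ces1g was identical to Ces1a at 70.7% of aligned bases, to Ces1h at 69.5%, to Ces1c at 65.3% and to Ces1e at 57.3%. A second RefSeq start of Ces1b, whose window overlaps the first, held no full D-box within its 250 bases. The D-box of the first window lies across the edge of the second, so the edge cuts it. The letters TATAAA were found in Ces1g, 26 bases before the start on the other strand, and in Ces1h, against 12.4% of all windows. On either strand, none of the 6 held AGGTCA, the core site of many nuclear receptors (14% of windows), or TCACNCCAC, a form of the sterol regulatory element (1.05% of windows). These matches describe letters in a short window and show no binding.

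Expression is on the log2 scale of the deposited values, where a step of 1 is a doubling. Values of different probe sets are not compared with each other. The median of the gene means, 4.74, served as a rough mark of background, since no detection calls were used. Ces1a and Ces1h lay below it in 9 of 9 arrays, and the other 6 members lay above it in every array. The labelled tissue showed its markers: the 8 hepatocyte markers (Alb, Ttr, Apoa1, Cps1, Cyp2e1, Ass1, Tat and Ahsg) were above that mark in every group. The lowest by far was Ass1, at 5.03 to 6.19 over the 9 arrays, close to that mark. Medians of the arrays spanned 4.34 to 4.38, and the correlation of array profiles was at least 0.987 for any pair, across genes, which are not independent replicates. RD replicate 1 stood nearest to the high-fat arrays on the first principal component, at -10.79 against -23.06 and -26.63 in RD replicates 2 and 3 and 5.66 to 11.71 in the other arrays.

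The first question was how the family stood in fatty-diet livers against regular-diet livers. Of the 8 members, Ces1g rose and none fell, against 1.34% of all genes called in either direction and 0.821% called higher. Ces1g, formerly Es-x, encodes an enzyme whose loss in mice raises lipid in liver and blood. The other 7 did not pass, and 6 of them were higher by 0.04 to 0.51 while Ces1f was lower. The median log2 difference of the members was 0.16, against 6.79e-05 over all genes tested, and 7 of 8 were above 0, against 50.1% of all genes. Over the 6 members that lie above background the median was 0.25 and 5 were above 0.

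Ces1g stood at 8.88, 8.56 and 7.27 in RD replicates 1 to 3. In the HFD arrays it stood at 9.74, 10.80 and 10.27, and in the GFB arrays at 10.28, 10.22 and 10.16. Every high-fat array was therefore above every regular-diet array, with the gap between 8.88 and 9.74. HFD lay above RD without overlap for 7.93% of all genes. The lowest regular-diet array, replicate 3, stood apart from the other RD arrays, and the 3 extract arrays lay close together (SD 0.06, against 0.86 on the regular diet and 0.53 on the high-fat diet).

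The log2 difference of Ces1g between HFD and RD was 2.03 ± 0.39 (SE, n = 3 against 3), a 4.09-fold rise, with an adjusted p of 0.0412 from limma over all genes. Its 95% interval ran from 1.16 to 2.90. No other member's interval in this comparison reached that range: the highest upper end was 1.10, for Ces1d. Whether the members' differences differ from each other was not tested. This call lay close to the threshold. It held without RD replicate 1 (2.36, adjusted p = 0.0251) and was lost without any other single array, with adjusted p from 0.0565 without RD replicate 3, where the difference was 1.55, to 0.134 without HFD replicate 2, where it was 1.77. It was also lost when the fit used the 6 arrays compared (adjusted p = 0.156).

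**Figure D1:**
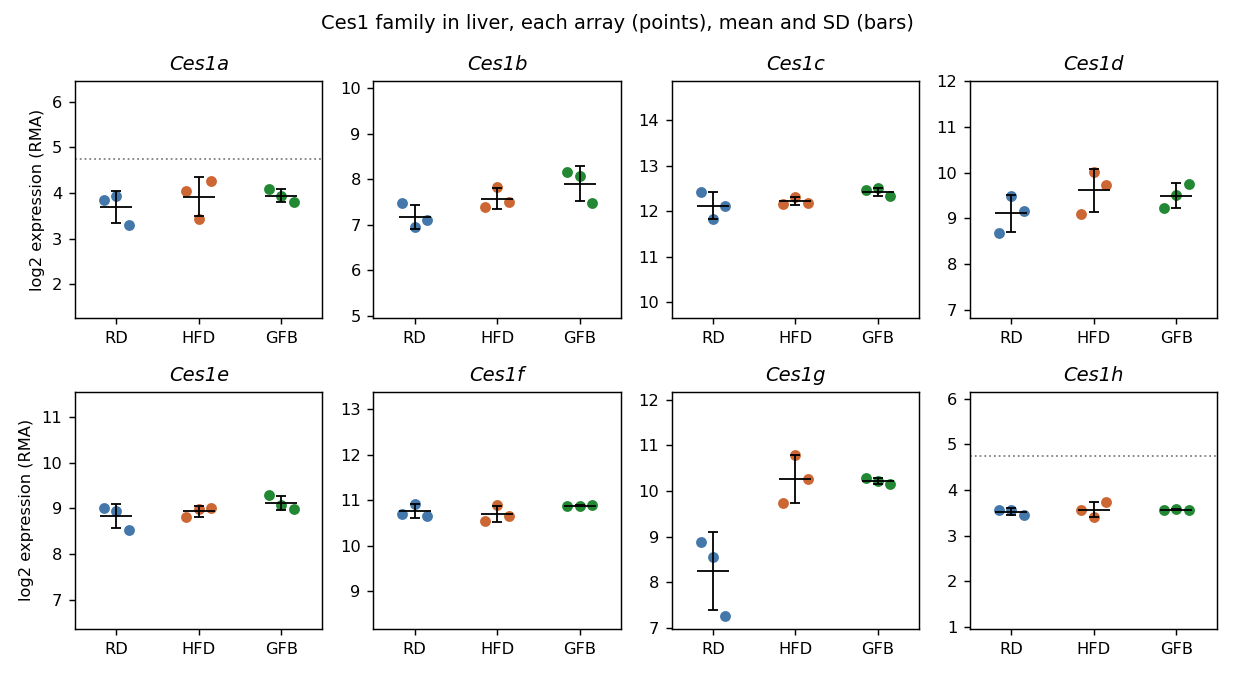
Log2 expression (vertical axis, RMA values, the same span in each panel) of the 8 Ces1 members in each group; points are single arrays, bars the mean and SD of 3 arrays, and the dotted line, where in range, the median gene mean of 4.74. Ces1g alone among the 8 has all 6 high-fat arrays above its 3 RD arrays, and Ces1a and Ces1h stay below the dotted line.

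Ces1d and Ces1f come next by role. Ces1d, the triacylglycerol hydrolase TGH, releases fatty acids from stored triglyceride for lipoprotein assembly. It stood at 8.69, 9.49 and 9.16 on the regular diet, at 9.10, 10.02 and 9.74 on the high-fat diet, and at 9.22, 9.51 and 9.76 with extract. The groups overlapped, since HFD replicate 1 lay below RD replicates 2 and 3. Its difference between HFD and RD was 0.51 ± 0.26 (adjusted p = 0.459), with a 95% interval from -0.09 to 1.10.

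Ces1f, a close relative also named TGH-2, varied little. Its arrays lay between 10.65 and 10.93 on the regular diet, between 10.54 and 10.90 on the high-fat diet, and between 10.87 and 10.89 with extract. The difference between HFD and RD was -0.06 ± 0.11 (adjusted p = 0.867), and its interval, from -0.30 to 0.18, leaves out a change of the size seen in Ces1g.

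Ces1c encodes the carboxylesterase that mouse liver secretes into blood plasma. It stood at 12.42, 11.83 and 12.12 on the regular diet, at 12.15, 12.31 and 12.18 on the high-fat diet, and at 12.46, 12.50 and 12.32 with extract. The regular-diet arrays spread over a wider range than those of either other group and took in all 3 HFD arrays. The difference between HFD and RD was 0.09 ± 0.14 (adjusted p = 0.830).

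Ces1e is egasyn, which holds beta-glucuronidase in the endoplasmic reticulum. Its arrays lay between 8.52 and 9.01 in RD, between 8.80 and 9.01 in HFD and between 8.99 and 9.29 in GFB. The difference between HFD and RD was 0.11 ± 0.14 (adjusted p = 0.805). Gusb, the gene of beta-glucuronidase, stood at 7.11, 7.21 and 7.27 in RD, at 7.07, 7.22 and 7.09 in HFD and at 6.84, 6.94 and 6.88 in GFB, so the extract arrays were the lowest, but its difference between GFB and HFD did not pass (-0.24 ± 0.08, adjusted p = 0.718), nor did that between GFB and RD (-0.31 ± 0.08, adjusted p = 0.143).

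Ces1b was next to Ces1g in the size of its difference from RD in the extract group. It stood at 7.47, 6.95 and 7.11 in RD, at 7.39, 7.83 and 7.51 in HFD, and at 8.17, 8.08 and 7.47 in GFB. The group means were 7.18, 7.58 and 7.91 in that order, yet GFB replicate 3 lay just below RD replicate 1, so even RD and GFB overlapped. The difference between HFD and RD was 0.40 ± 0.20 (adjusted p = 0.450).

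Ces1a and Ces1h gave signal that cannot be told from background. Ces1a ranged from 3.30 to 4.28 over all arrays and Ces1h from 3.40 to 3.74. For Ces1h the same deposited value, 3.57, occurred in 5 of 9 arrays, as a value did at least that often in 7.19% of all genes. Their differences between HFD and RD were 0.22 ± 0.22 and 0.04 ± 0.09 (adjusted p = 0.745 and 0.888), and no change between groups is read from either.

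The second question was how extract on the high-fat diet compared with the high-fat diet alone. No member passed in limma (lowest adjusted p = 0.863), 0 had an unadjusted p under 0.05, and 1 gene of 22180 passed in this comparison (0.00451%). Ces1g stood at -0.05 ± 0.39, with a 95% interval from -0.92 to 0.82, so its level with extract was neither shown to differ from the high-fat diet nor shown to be equal to it. Ces1c was the 1 member whose arrays did not overlap, at 12.32 to 12.50 with extract against 12.15 to 12.31 without, where 9.69% of all genes did not overlap and 4.42% did so with extract higher. Its difference was 0.21 ± 0.14 (adjusted p = 0.864). Ces1b (0.33 ± 0.20), Ces1e (0.18 ± 0.14) and Ces1f (0.18 ± 0.11) were higher as well and did not pass. The intervals of all 8 members lay within a change of 1 on the log2 scale in either direction, from the widest, that of Ces1g, to narrower ones such as that of Ces1f, from -0.06 to 0.42. The median was 0.10 over the 8 members and 0.18 over the 6 above background, against -0.00154 over all genes.

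**Figure D2:**
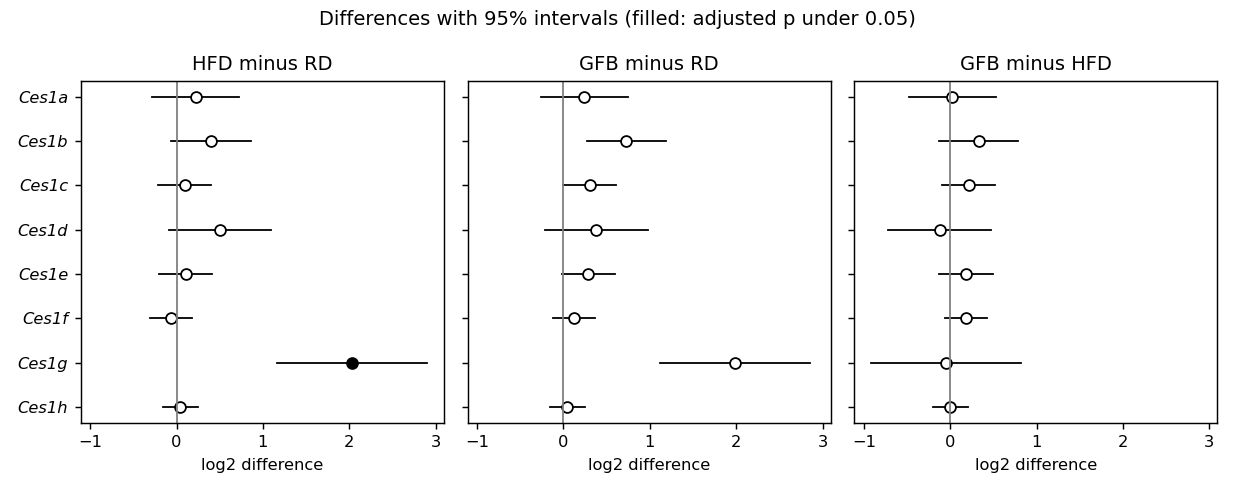
Log2 differences (horizontal axis) of the 8 Ces1 members (rows) in 3 comparisons, with 95% intervals as lines; a filled point passed at an adjusted p under 0.05. The 1 filled point is Ces1g in HFD minus RD (2.03), and its point in GFB minus RD (1.98) lies at a similar distance from 0 without passing.

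In the comparison of extract on the high-fat diet with the regular diet, no member passed, against 0.442% of all genes, and all 8 were higher, against 50.3% of all genes. Without Ces1a and Ces1h, which are not told from background, 6 of 6 were higher. The median difference was 0.30 over the 8 and 0.34 over the 6, against 0.000855 over all genes. This comparison shares the RD arrays with the one of HFD and RD, so the values are given side by side and not as a second line of support. Ces1g was 1.98 ± 0.39 higher (3.96-fold, adjusted p = 0.0788), where it had been 2.03 in HFD. It passed without RD replicate 1 (2.31, adjusted p = 0.0367). Ces1b was 0.73 ± 0.20 higher (adjusted p = 0.196), where it had been 0.40. Its unadjusted p was 0.00577, which together with Ces1g made 2 members with an unadjusted p under 0.05. A limma p of 0.0503, that of Ces1c, ranked 2682 of 22180 genes here, so a p under 0.05 was common. Ces1c was 0.31 ± 0.14 higher (adjusted p = 0.416), Ces1e 0.29 ± 0.14 (adjusted p = 0.456), Ces1d 0.38 ± 0.26 (adjusted p = 0.624) and Ces1f 0.12 ± 0.11 (adjusted p = 0.714).

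With the HFD and GFB means averaged and set against RD, Ces1g rose by 2.01 ± 0.33 (4.02-fold, adjusted p = 0.0236), against 1.68% of all genes called. It ranked 167 of 22180 genes by p. The 6 high-fat arrays lay above the 3 RD arrays for Ces1g, as for 3.8% of all genes. The call was lost without RD replicate 2 (2.17, adjusted p = 0.0771), without RD replicate 3 (1.52, adjusted p = 0.0517), without HFD replicate 3 (adjusted p = 0.0622), and without GFB replicates 1, 2 or 3 (adjusted p = 0.0632, 0.067 and 0.0526). Ces1b was 0.56 ± 0.18 higher without passing (adjusted p = 0.175), and the remaining 6 members lay between 0.03 and 0.44. The moderated F test over the 3 groups called none of the 8, with Ces1g at an adjusted p of 0.0615 and Ces1b at 0.281, against 0.78% of all genes. At an unadjusted p that F test gave 0.000637 for Ces1g and 0.0181 for Ces1b, and no other member was under 0.05.

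**Figure D3:**
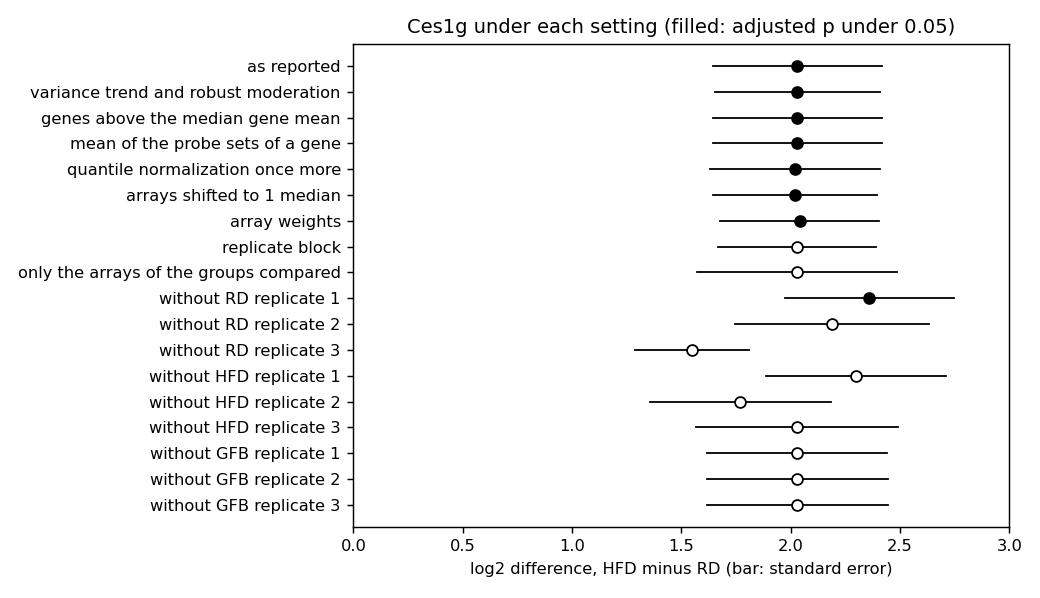
Log2 difference of Ces1g between HFD and RD (horizontal axis, bars ± standard error) under the reported fit and each alternative (rows); filled points passed at an adjusted p under 0.05. The difference stays between 1.55 and 2.36, while most of the fits that leave out 1 array do not pass.

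Within groups the members did not all follow the same arrays. HFD replicate 1 was the lowest of the HFD arrays for 6 of the 6 members above background, where it was the lowest for 32.1% of the 11090 genes above the median gene mean. HFD replicate 2 was the highest for 5 of the 6, the exception being Ces1e, against 33.9% of those genes. In the regular diet the order split: replicate 1 was the highest for Ces1b, Ces1c, Ces1e and Ces1g, but the lowest for Ces1d. In the extract group replicate 3 was the lowest for those same 4 members (41.1% of genes) and the highest for Ces1d and Ces1f. The 6 share the arrays and may share signal, so these counts are descriptions.

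The genes whose profile lay nearest to that of Ces1g were found by the root-mean-square difference of values centred on each gene over the 9 arrays. They were Car3 (0.23), Fdps (0.34) and the RIKEN gene C730036E19Rik (0.36), where the root-mean-square size of the Ces1g profile itself was 1.06. Car3 encodes carbonic anhydrase 3, an abundant cytosolic protein of liver, muscle and fat, and Fdps encodes farnesyl diphosphate synthase of the sterol pathway. Against the average of the high-fat groups, these genes differed from RD by 1.87, 2.07 and 2.20 in that order. They were picked for values close to those of Ces1g over the same arrays, so a rise of this size is built into the choice and is no separate result. In the regular-diet arrays Car3 stood at -0.34, -1.21 and -2.19 around its mean, where Ces1g stood at -0.69, -1.02 and -2.31. Fdps was more even there, at -1.19, -1.18 and -1.78. The nearest carboxylesterases were Ces2g (0.71, rank 60 among all genes), Ces2e (0.73, rank 83) and Ces1b (0.82, rank 196).

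**Figure D4:**
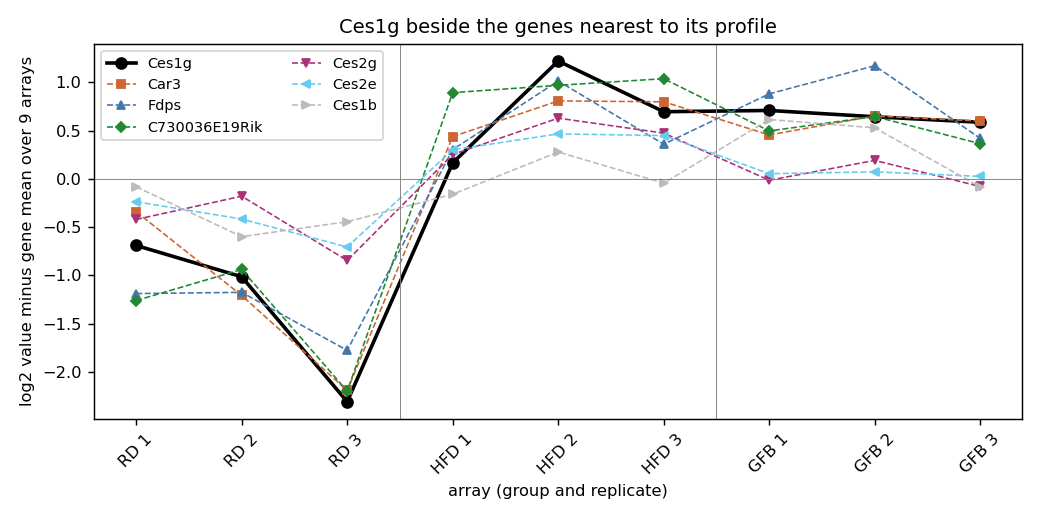
Log2 values minus each gene's mean over the 9 arrays (vertical axis) by array (horizontal axis) for Ces1g, the 3 genes nearest to its profile (Car3, Fdps, C730036E19Rik) and the 3 nearest carboxylesterase genes (Ces2g, Ces2e, Ces1b). Ces1g and Car3 both fall furthest in RD replicate 3, to -2.31 and -2.19. Ces2g and Ces2e are also lowest there (-0.85 and -0.71), and Ces1b is lowest in RD replicate 2 (-0.60).

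Among the other carboxylesterases, 10 of 11 listed were measured. On the high-fat diet 3 of them rose and none fell, where 1.34% of all genes were called and 0.821% called higher. They were Ces2e (0.86 ± 0.11, adjusted p = 0.0132), Ces2g (0.93 ± 0.17, adjusted p = 0.0341) and Ces3a (0.53 ± 0.09, adjusted p = 0.0259). With extract against the high-fat diet Ces2a rose (0.75 ± 0.07, adjusted p = 0.0376), the 1 gene of 22180 called there (0.00451%). Ces2a was lower in HFD than in RD without passing (-0.23 ± 0.07, adjusted p = 0.170). In GFB against RD it rose (0.51 ± 0.07, adjusted p = 0.0224), against 0.442% of all genes called, and 4 of 9 fits without 1 array kept that call. All 10 were higher in that comparison. The median of the 10 between HFD and RD was 0.47, and 7 of 10 were higher, against 50.1% of all genes. Of the fits without 1 array, Ces2e was called between HFD and RD in 7 of 9 (not without RD replicate 2 or HFD replicate 3), Ces3a in 2 (without RD replicate 1 or GFB replicate 3) and Ces2g in 1 (without RD replicate 2), and Ces2a with extract against the high-fat diet in 0, where its difference stayed between 0.72 and 0.80.

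Other ester and glyceride hydrolases were looked at beside the family. Of 20 listed, 19 were measured, none passed between HFD and RD in limma, and 11 were lower, with a median of -0.08. Of the 19, 4 had an unadjusted p under 0.05 there. Among all 22180 genes a limma p of 0.0485 ranked 2900 in that comparison, so a p under 0.05 was common. Mgll, the monoglyceride lipase gene, and Pnpla8, a phospholipase gene, had the smallest p there, at -0.47 ± 0.10 (adjusted p = 0.0618) and -0.31 ± 0.09 (adjusted p = 0.148). Mgll stood at 9.13, 9.47 and 9.43 in RD, at 8.87, 8.85 and 8.90 in HFD and at 8.62, 8.72 and 8.50 in GFB. The 3 groups did not overlap, in falling order, where GFB and HFD did not overlap for 9.69% of all genes. Mgll fell by 0.73 ± 0.10 in GFB against RD (adjusted p = 0.023) and its difference between GFB and HFD, -0.26 ± 0.10, did not pass (adjusted p = 0.802). Its call in GFB against RD held without RD replicate 1 or HFD replicate 2 and was lost without any 1 of the other 7 arrays. That call was also lost in the fit of only the arrays compared (adjusted p up to 0.116 over all alternatives). Over the averaged high-fat groups Mgll fell by 0.60 ± 0.09 (adjusted p = 0.0153), a call held in 14 of 16 alternatives and lost without RD replicate 2 or RD replicate 3. Abhd5, the coactivator gene of the lipase encoded by Pnpla2, had the smallest p of the list with extract against the high-fat diet (-0.33 ± 0.12, adjusted p = 0.767).

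Of 12 listed genes of lipoprotein and glycerolipid assembly, 10 were measured. On the high-fat diet 1 fell and none rose, against 1.34% of all genes called in either direction. It was Gpat4, the glycerol-3-phosphate acyltransferase 4 gene, at 9.52, 10.15 and 10.01 in RD against 8.82, 8.81 and 9.17 in HFD (-0.96 ± 0.18, adjusted p = 0.0396). That call held without RD replicate 1 and was lost without any 1 of the other 8 arrays. It was also lost in the fit of only the arrays compared (adjusted p up to 0.133 over all alternatives). Dgat2, the diacylglycerol acyltransferase 2 gene, was 0.39 ± 0.09 higher and did not pass (adjusted p = 0.0744). With extract against the high-fat diet none of the 10 passed in limma, and 0 had an unadjusted p under 0.05.

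Of 14 listed transcriptional regulators, 13 were measured, and 11 were higher on the high-fat diet, against 50.1% of all genes. Of the 13, 1 rose and none fell, against 1.34% of all genes called. The gene that rose was Srebf2, which encodes a factor that binds the sterol regulatory element. It stood at 6.84, 6.76 and 6.78 in RD, at 7.65, 7.87 and 7.46 in HFD and at 7.91, 7.88 and 7.54 in GFB. Its difference was 0.87 ± 0.13 between HFD and RD (adjusted p = 0.0157) and 0.99 ± 0.13 between GFB and RD (adjusted p = 0.0168). The first call was lost without RD replicate 2, RD replicate 3 or HFD replicate 1, and in the fit of only the arrays compared. Its adjusted p was up to 0.0686 over all alternatives. The second call was lost without RD replicate 2, RD replicate 3, GFB replicate 1 or GFB replicate 2. Over the averaged high-fat groups (0.93 ± 0.11, adjusted p = 0.00711) Srebf2 was called in 16 of 16 alternatives. Srebf1, the related factor of fatty acid synthesis, was 1.05 ± 0.26 higher on the high-fat diet and did not pass (adjusted p = 0.098). Nr1h4, the bile acid receptor FXR, was 0.34 ± 0.10 higher (adjusted p = 0.172), and Hnf4a, a hepatocyte factor, -0.19 ± 0.08 (adjusted p = 0.371).

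Markers of cell types moved with diet in part. In whole liver, fewer cells of a type and less RNA per cell cannot be told apart. The mean log2 level of the 8 hepatocyte markers ran from 11.85 to 11.97 in RD, from 11.65 to 11.79 in HFD and from 11.79 to 11.90 in GFB, lower in HFD than in RD without overlap. The list was split between HFD and RD, with 4 of 8 markers higher, 4 lower and a median of -0.01. Cps1, which encodes the first enzyme of the urea cycle, fell (-0.66 ± 0.10, adjusted p = 0.0224). Ass1 (-0.75 ± 0.19, adjusted p = 0.119) and Tat (-0.47 ± 0.18, adjusted p = 0.302) were lower without passing, while Alb, the albumin gene, stood at 0.01 ± 0.06. The signal of Ass1 was close to the mark of background. Of the 6 stellate and fibrosis markers, the collagen genes Col1a1 and Col3a1 rose in HFD against RD (0.85 ± 0.12 and 1.14 ± 0.14), while Dcn (-0.38 ± 0.11, adjusted p = 0.149), Lrat and Reln were lower without passing. That made 3 higher and 3 lower, with a median of -0.00249, and the mean of the 6 ran from 6.79 to 7.04 in RD, from 7.06 to 7.25 in HFD and from 7.01 to 7.03 in GFB. With extract, Col1a1 and Col3a1 were not higher than in RD (-0.20 ± 0.12 and -0.01 ± 0.14, neither called). Against HFD they were lower without passing (-1.05 ± 0.12, adjusted p = 0.0851, and -1.15 ± 0.14, adjusted p = 0.0975), while the other 4 markers were higher. Kupffer cell markers (6.31 to 6.999 in RD, 6.49 to 6.80 in HFD and 6.35 to 6.89 in GFB) and endothelial markers (7.39 to 7.51, 7.22 to 7.50 and 7.41 to 7.67) overlapped between groups. No gene of either list passed in limma in any comparison, and between HFD and RD 0 of 6 and 3 of 5 had an unadjusted p under 0.05. In that comparison a limma p of 0.0485 ranked 2900 of 22180 genes. White adipose tissue also expresses Ces1d and Ces1f. Its 4 measured markers had means from 3.8 to 3.89 in RD, from 3.90 to 4.06 in HFD and from 3.84 to 4.04 in GFB. These means were higher in HFD than in RD without overlap, but the list was split, with 2 of 4 markers higher and 2 lower. Lep (0.30 ± 0.12, adjusted p = 0.303) and Retn (0.25 ± 0.12, adjusted p = 0.410) were higher without passing. Plin1 (-0.10 ± 0.10) and Adipoq (-0.01 ± 0.07) were lower without passing. Adipoq and Lep lay below the median gene mean in every array. Plin1 reached 4.94 in RD replicate 2 and Retn 4.84 in HFD replicate 2, both above the median gene mean. Of the measured markers, 4 of 5 for lymphocytes, 2 of 4 for bile duct cells and 2 of 3 for pancreas were below it in every array, and none of the red blood cell markers was measured. The part of cell composition in the Ces1g difference was not tested.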

How the data were processed

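The authors deposited log2 values, 1 per probe set and array, computed by RMA in oligo according to the submitters' processing notes (versions not stated). RMA corrects background, quantile-normalizes the arrays and summarises probes, so a shift shared by most genes would be removed. For the probe sets, the sources used here name no genome build. Of the probe sets, 23521 had 1 gene symbol, 1814 several and 16010 none. For a gene with several single-symbol probe sets the brightest was used. Group means were fitted to all 9 arrays with limma 3.58.1 in R 4.3.3 (6 residual and 3.28 prior degrees of freedom), and p-values were adjusted by Benjamini-Hochberg over 22180 genes, called under 0.05, two-sided. The procedure was tested on simulated data. With 3 arrays against 3 an exact permutation test cannot go below 0.1, so none was used; precision is limited by the number of arrays. Promoters were aligned with Biopython 1.88. The members, gene lists and comparisons were chosen with earlier results of these data known. All 8 members, the 3 genes nearest in profile to a called member, and the called or 2 lowest-p genes of each list were to be named; where fewer are named, counts stand for the rest. Nr1h4, Hnf4a and the arrays of Gusb were added after their values were seen. Same-numbered arrays deviated together with correlations of -0.05 to 0.17 across genes, so the numbers were not taken as pairs. The planned protein alignment was not made, as protein sequences were not used here, and the members had no further probe sets to describe.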

Additional observations from a re-analysis of the deposited data

How the results depend on the processing

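The direction of the Ces1g difference from RD was the same in all alternatives run for the 3 comparisons with RD, from 1.5 to 2.36. Its call between HFD and RD held in 7 of the 17 alternatives that refit the values, and for the averaged high-fat groups in 10 of 16. Between HFD and RD the count of members called fell from 1 to 0 with the replicate block (2.03, adjusted p = 0.0586), although the numbers were not taken as pairs, and in the fit of the 6 arrays compared. Leaving out single arrays gave counts from 0 to 1 in that comparison, in GFB against RD, in the averaged comparison and in the F test. In GFB against RD the count rose from 0 to 1 among genes above the median gene mean (adjusted p = 0.0369) and at an adjusted p under 0.10. In the F test it rose from 0 to 1 with a variance trend and robust moderation, among genes above the median gene mean and at an adjusted p under 0.10. In the brighter set the adjustment ran over 11090 genes, and the cause of these changes was not tested. Of the 28 other pairs of a member and a comparison, none was called in any alternative, and 8 changed sign in at least 1, as did Ces1g with extract against the high-fat diet. Ces2a, Ces2e, Ces2g, Ces3a, Mgll, Gpat4, Srebf2, Cps1, Col1a1 and Col3a1 kept their direction in every alternative run for the comparisons that called them. Between HFD and RD, leaving out 1 array in turn kept the call of Cps1 in 4 of 9 fits (not without RD replicates 2 or 3 or any HFD array), of Col1a1 in 5 (not without RD or HFD replicates 2 or 3) and of Col3a1 in 8 (not without RD replicate 2), with adjusted p up to 0.105, 0.0877 and 0.0749 over all alternatives. Quantile normalization once more and a shift to 1 median changed no count of called members. Averaging the probe sets of a gene left the members' values as they were. Signal near background limits Ces1a and Ces1h.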
